A study of Homo sapiens with 9 samples.

Results

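Antibody-barcode eCLIP (ABC) maps where RNA-binding proteins (RBPs) sit on RNA in cells crosslinked by ultraviolet light: each antibody carries its own DNA barcode, which is ligated to the RNA held by its RBP, so that several RBPs can be read from 1 pool. The regions described here are the proximal intron peaks off splice sites. They are the merged peaks whose centre lay in an intron of an Ensembl canonical coding transcript, on its strand, more than 100 and at most 500 nt from the nearer end of the intron. Of 2478204 merged peaks in 54 libraries, 172120 (6.945%) met this rule. Of these, 74461 lay upstream of an exon, that is nearer the 3′ end of the intron, 97576 lay downstream of an exon, nearer its 5′ end, and 83 lay at the middle. Another 266143 intronic peaks lay within 100 nt of an intron end and 675497 lay over 500 nt from both ends, and both serve for comparison.

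The same 10 RBPs (DDX3, EIF3G, FAM120A, IGF2BP2, LIN28B, PRPF8, PUM2, RBFOX2, SF3B4 and ZC3H11A) were profiled by 10plex ABC in K562 cells, an erythroleukaemia line, with 3 replicates, and in HEK293T cells, a line from embryonic kidney, with 2 replicates. Singleplex ABC, with 1 antibody, had 2 replicates for RBFOX2 in HEK293T cells and 2 for SLBP in K562 cells. The labels name no gene edit and no treatment other than crosslinking for any group. The labels do not say whether replicates came from separate cultures, so that the spread between replicates may be technical. The titles of both 10plex HEK293T samples say rep1, with "originally rep1" and "originally rep2" in brackets. They are taken here as 2 replicates. The p-values that compare RBPs tell how far an RBP stands out among the 10 of its pools, and do not measure that spread. Those that compare cell lines, or singleplex with 10plex, rest on the spread between these libraries. Some labels of the 10plex HEK293T libraries name K562 cells, but K562 marker genes held 6 to 26 reads per pool there against 6315 to 15117 in the K562 pools, and HEK293 markers 962 to 1883 against 21 to 78.

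Introns are removed by the spliceosome, which pairs with the 5′ splice site at the upstream exon and with the branch point and 3′ splice site before the downstream exon. PRPF8 forms the core of its catalytic centre, and SF3B4 is a subunit of the SF3B complex, which sits at the branch point. RBFOX2 is a splicing regulator that binds GCATG, read with U for T in RNA, beside alternative exons, and is known for promoting an exon from the intron downstream of it and repressing it from the intron upstream. The other RBPs are mostly known from mature mRNA: EIF3G is a subunit of a translation initiation factor, DDX3 an RNA helicase, PUM2 and IGF2BP2 bind 3′ UTRs, LIN28B binds let-7 precursors and mRNAs with GGAG, and ZC3H11A acts in mRNA export. Human introns also hold genes of small nucleolar RNAs (snoRNAs), which are processed from the spliced intron.

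The RBFOX2 sites with the highest fold over the complement control (CC, the other 9 barcodes of the pool) are shown first, because most hold the same 5 bases. They were taken from proximal intron peaks that were enriched (P below 0.001 and over 8-fold above the CC) in every replicate of a cell line, so that their folds are a description. Each run of 30 bases is the GRCh38 sequence on the strand of the gene, with GCATG in capitals.
PPIP5K1, chr15:43559403-43559432, minus strand: acatcctaaatttGCATGaaccccttctca
CCDC88B, chr11:64354995-64355024, plus strand: tggccctctccgtGCATGagcctcagcccc
TNFSF9, chr19:6534211-6534240, plus strand: tcttcctcttcctGCATGtctttccccgca
RTEL1, chr20:63667978-63668007, plus strand: ccctcttcccagtGCATGcccggccccaca
EPC2, chr2:148784334-148784363, plus strand: tactaatattcatGCATGtgtacatactta
RPP40, chr6:5000803-5000832, minus strand: tgcttggtcttctGCATGcttggtcttctg
CACNG6, chr19:53999919-53999948, plus strand: tccacacactgttGCATGctgggagtagga
The first 4 were ranked in K562 cells and the other 3 in HEK293T cells. PPIP5K1, CCDC88B, TNFSF9, EPC2 and RPP40 are upstream of an exon, RTEL1 and CACNG6 downstream. PPIP5K1, a kinase of inositol pyrophosphates, was bound in intron 29 of 31, 478 nt from the next exon, with 9, 15 and 27 reads and log2 folds of 5.35, 6.18 and 6.37 over the CC. It has a near-identical copy nearby, between which reads may be split. TNFSF9, the ligand of 4-1BB, was bound in intron 2 of 2, 350 nt before its last exon, with 18, 34 and 15 reads and log2 folds of 6.34, 5.77 and 4.52. RTEL1, a helicase that protects telomeres, was bound in intron 8 of 34 at 448 nt from the exon, with 200, 356 and 160 reads and log2 folds of 5.17, 5.70 and 5.35. All 3 K562 replicates were enriched at each of these sites, as the choice requires, with folds that spread by 0.27 (RTEL1) to 0.99 (CCDC88B) on the log2 scale (SD, n = 3). In HEK293T cells, CACNG6, a calcium channel subunit, was bound 180 nt downstream of an exon that some transcripts skip, with 22 and 53 reads, and EPC2 295 nt upstream of an exon with 21 reads in each replicate. Of the 12 RBFOX2 sites ranked by this rule, 3 had no GCATG within 75 nt of the centre: those in POTEE and PLEKHG4B, and another in the same RTEL1 intron at 220 nt. The sites in POTEE and TRIM74 belong to families of near-identical genes and are uncertain.

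For PRPF8 the same rule gave 6 sites, and 4 of them had GTAAG or GTGAG, which resemble a 5′ splice site, within 75 nt of the centre, with 1 GTAAG shared by both peaks in CASP2. The sites in LBR and ZSCAN29 had neither. Either motif is common: 29.9% of all PRPF8 proximal intron peaks in K562 cells held one within 75 nt. So did 25.6% of windows of the same length over the same bands of all canonical coding introns. A count over so few sites is a description only. The 3 sequences are printed because no canonical splice site lies there.
DHX9, chr1:182856250-182856279, plus strand: ctttggaataagaGTAAGtaaatataaaat
CASP2, chr7:143300428-143300457, plus strand: cctctcttgctctGTAAGtgtctcccaatg
LPGAT1, chr1:211830166-211830195, minus strand: cgcgcccgccgagGTGAGcccggcgcgcgg
DHX9, an RNA helicase, was bound in intron 6 of 27, 263 nt before the next exon, with 6, 10 and 11 reads and no annotated splice site of another transcript within 100 nt. CASP2, the gene of an initiator caspase, held 2 neighbouring peaks, at 162 and 185 nt downstream of an exon, with 15 to 19 reads each, in or near an exon of another annotated transcript. LPGAT1 was bound in intron 1 of 7, 429 nt from the first exon, also at an exon or splice site of another transcript.

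Proximal intron peaks made up a larger share of the RBFOX2 and PUM2 peaks than of the peaks of most other RBPs in K562 cells. For RBFOX2 they were 10.01%, 10.98% and 10.65% of merged peaks in the 3 replicates, 10.5% ± 0.50 (SD, n = 3), against a mean of 5.31% over the other 9 RBPs of the same pools. The RBFOX2 libraries were above those of every RBP but PUM2. The exact permutation of RBP labels within replicates gave p = 0.016, adjusted p = 0.080 over the 10 RBPs, which misses the threshold. For PUM2 the share was 15.67%, 9.90% and 11.53% (p = 0.003, adjusted p = 0.030, exact permutation test), but on 147 to 152 peaks per library, and the difference of 7.26 points from the other RBPs turned to -1.45 points without peaks in small RNA genes. SF3B4 had 8.19% ± 0.51 (n = 3), EIF3G 7.17% ± 1.94, and the remaining RBPs 2.14% (IGF2BP2) to 5.08% (ZC3H11A). In HEK293T cells SF3B4 (11.14% and 9.82%) and RBFOX2 (11.01% and 9.40%) stood above the 2.34% to 7.64% of the other libraries. The exact permutation p was 0.010 for SF3B4 (adjusted p = 0.10, the smallest that 2 replicates of 10 RBPs can give) and 0.040 for RBFOX2 (adjusted p = 0.20). Peak calls follow the amount of intronic RNA as well as binding, and the share cannot tell these apart.

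**Figure D1:**
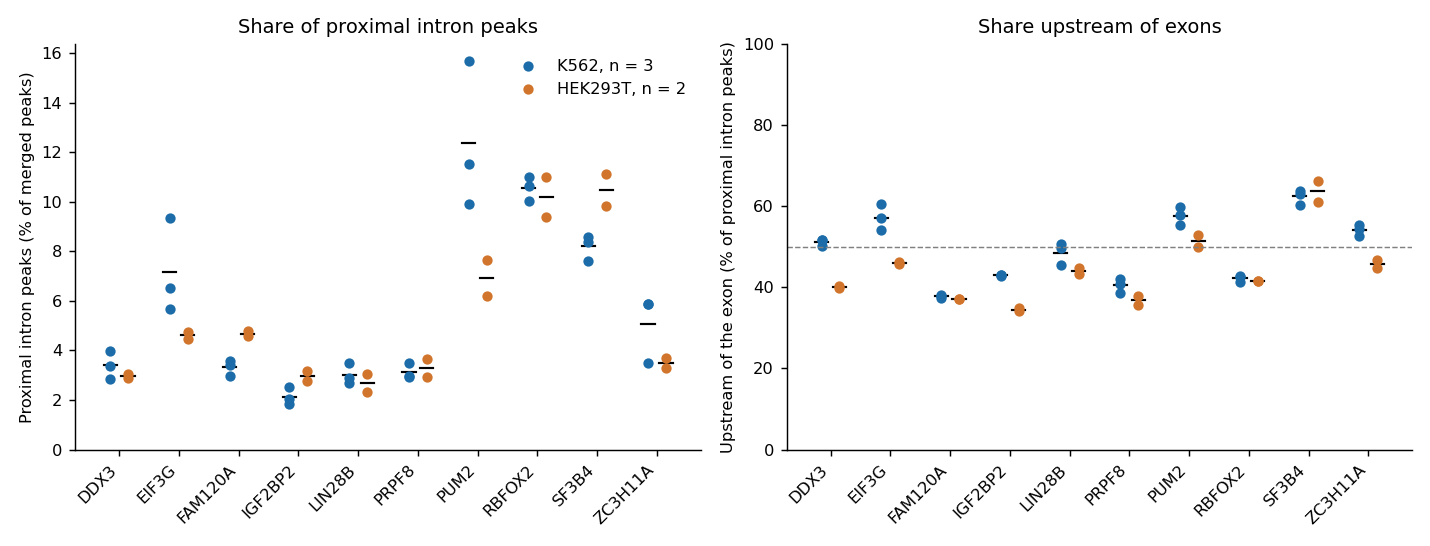
Left, proximal intron peaks as a percentage of the merged peaks of each 10plex library. Right, the percentage of them that lay upstream of exons. Each point is a library, bars are means over replicates (n = 3 in K562, n = 2 in HEK293T), and the dashed line marks 50%. RBFOX2 sits near 10% in both cell lines, and SF3B4 near 62% to 64% upstream.

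The side of the exon separated SF3B4 from the rest. In K562 cells 60.33%, 63.03% and 63.85% of its proximal intron peaks were upstream of exons, 62.4% ± 1.8 (SD, n = 3), and every one of these values but the first was above all 27 libraries of the other RBPs, whose highest was 60.47% (EIF3G). The difference of 14.4 points from the mean of the other 9 gave p = 0.002 (adjusted p = 0.020, exact permutation test). FAM120A lay at the other end with 37.97%, 37.42% and 38.18% upstream (p = 0.006, adjusted p = 0.030, exact permutation test), and PRPF8 had 40.5% ± 1.8, which did not pass (p = 0.052, adjusted p = 0.17, exact permutation test). RBFOX2 was also mostly downstream, with 41.34%, 42.54% and 42.73% upstream, 8.07 points below the others (p = 0.13, adjusted p = 0.21, exact permutation test). In HEK293T cells SF3B4 had 66.21% and 61.08% upstream against at most 52.97% in any other library (p = 0.010, adjusted p = 0.10, exact permutation test). Without peaks at exons or splice sites of other transcripts, the FAM120A difference was -11.4 points and no longer passed.

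The proximal intron peaks of most RBPs were densest at the edge nearest the splice sites, by unequal amounts. For SF3B4 in K562 cells, 25.4% ± 1.6 (SD, n = 3) of the proximal intron peaks lay in the first 50 nt of the band upstream of an exon and 2.45% ± 0.44 in its last 50 nt. For PRPF8 the most filled 50 nt were the first downstream of an exon, with 18.7% ± 2.4 against 3.03% ± 0.35 in the last. On the upstream side PUM2 (28.3% ± 0.87) and EIF3G (24.4% ± 2.9) had shares in the first 50 nt like that of SF3B4. Most proximal intron peaks of PUM2 and of EIF3G in K562 cells lay inside small RNA genes, however. RBFOX2 went from 11.6% ± 0.19 to 4.39% ± 0.23 downstream and from 9.47% ± 0.87 to 3.47% ± 0.21 upstream. The median distance of RBFOX2 peaks from the exon was 242, 246 and 228 nt upstream, 49.7 nt more than the mean of the others (p = 0.008, adjusted p = 0.037, exact permutation test), and 243, 247 and 242 nt downstream (p = 0.026, adjusted p = 0.068). FAM120A, with means of 243.5 nt upstream and 253.7 nt downstream, was also farther out (adjusted p = 0.010 on both sides, exact permutation test), and PUM2, at 153.7 nt upstream, was nearer (adjusted p = 0.037).

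**Figure D2:**
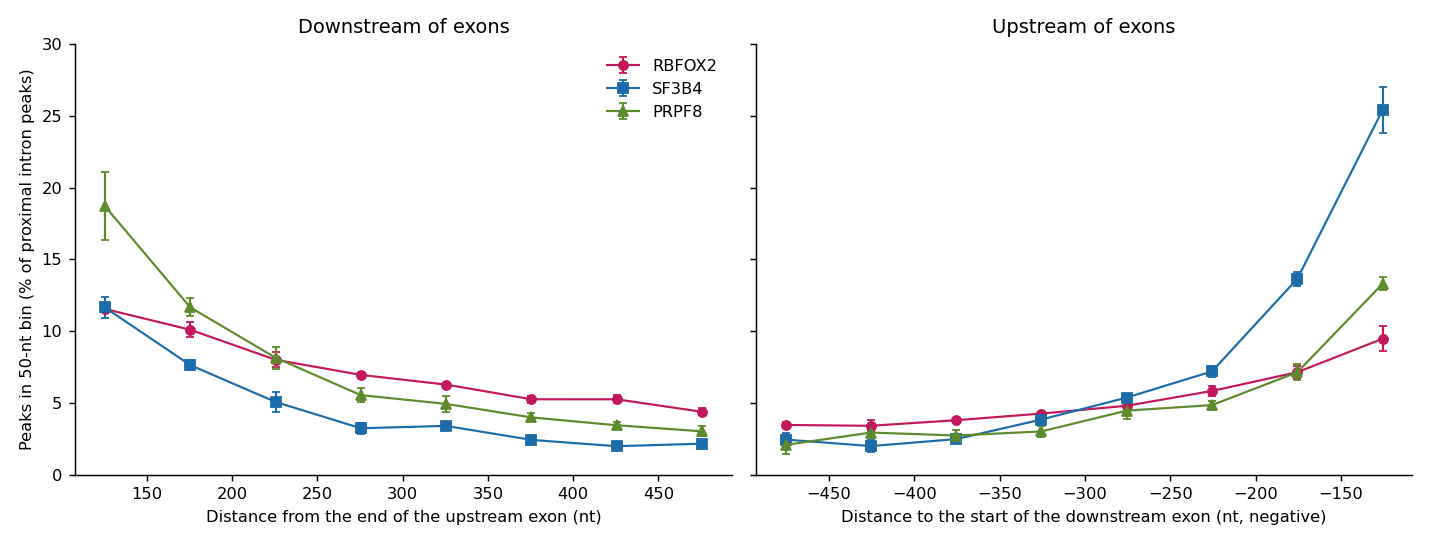
Proximal intron peaks of RBFOX2, SF3B4 and PRPF8 in K562 cells by distance to the nearer exon in bins of 50 nt, as a percentage of all proximal intron peaks of the library (mean and SD, n = 3). SF3B4 reached 25.4% in the bin next to the downstream exon, and RBFOX2 had the flattest fall on both sides.

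Enrichment over the CC compares the reads of an RBP at a peak with those of the rest of its pool. Its P value depends on the number of reads and on the RBP's share of the pool, as well as on binding. It was the deposited P in K562 replicate 3, and came from the chi-squared statistic at every read number in the other pools. The part of reads and pool share in the differences between RBPs was not tested in either cell line. In K562 cells 19.29%, 20.96% and 23.26% of the RBFOX2 proximal intron peaks with a CC value were enriched, against 11.2% of all RBFOX2 peaks. LIN28B had 26.57%, 34.43% and 29.11% enriched (background 37.6%) and SF3B4 27.40%, 26.74% and 35.72% (background 30.9%). Both were above the mean of the other RBPs (adjusted p = 0.025 for each, exact permutation test), while the mean of each was below its background over all replicates. SF3B4 replicate 1 was above the 25.3% of all peaks of its own library. Over the external background the LIN28B difference from the other RBPs turned from 16.1 to -13.8 points (p = 0.38, exact permutation test). FAM120A, whose background was 18.6%, had 2.81%, 2.72% and 2.91% (p = 0.011, adjusted p = 0.037, exact permutation test). It held 30.2%, 36.8% and 25.1% of the pool in these replicates. The enriched FAM120A peaks had a median of 14.5, 19 and 14 reads, against 4 in each replicate for all its proximal intron peaks. The RBFOX2 share, 21.2% ± 2.0 (n = 3), did not pass (p = 0.31, adjusted p = 0.61, exact permutation test). The remaining means were 14.7% for PRPF8 (background 22.5%), 14.5% for ZC3H11A (22.6%), 13.5% for EIF3G (32.3%), 11.1% for DDX3 (21.3%), 10.4% for PUM2 (31.2%) and 7.02% for IGF2BP2 (12.1%), each below its background. Of the 10 means, that of RBFOX2 was above its background with all peaks counted. The PUM2 difference from the other RBPs turned from -5.70 to 39.5 points without peaks in small RNA genes (p = 0.001, exact permutation test), on few peaks.

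These calls moved with the choice of peaks. The SF3B4 difference of 16.1 points fell to 4.87 without peaks in small RNA genes (p = 0.70) and to 5.44 without those at exons or splice sites of other transcripts (p = 0.72, exact permutation tests). Among peaks with at least 10 reads, RBFOX2 exceeded the other RBPs by 33.9 points (p = 0.001, the smallest the exact permutation can give), while the LIN28B and SF3B4 differences shrank to 0.19 and 3.68 points and that of FAM120A turned from -14.1 to 0.27 points. The unadjusted exact permutation p of LIN28B and that of SF3B4 reached 0.050 without K562 replicate 2 and without replicate 3, with differences of 14.2 and 12.9 points, and that of FAM120A 0.050 and 0.070 without replicates 1 and 2.

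By side, the enriched share of SF3B4 was 32.19%, 32.36% and 38.98% upstream of exons (p = 0.001, adjusted p = 0.010, exact permutation test) and 20.22%, 17.21% and 29.97% downstream, where it did not pass (adjusted p = 0.69). LIN28B showed the other order, with 31.61%, 40.00% and 36.25% downstream (p = 0.001, adjusted p = 0.010, exact permutation test) and 23.6% ± 4.3 upstream (adjusted p = 0.23). RBFOX2 had 21.0% ± 1.7 upstream and 21.3% ± 2.3 downstream, closer together than the replicates of either side. Among enriched SF3B4 peaks alone, 72.1% ± 3.4 were upstream (adjusted p = 0.020, exact permutation test).

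**Figure D3:**
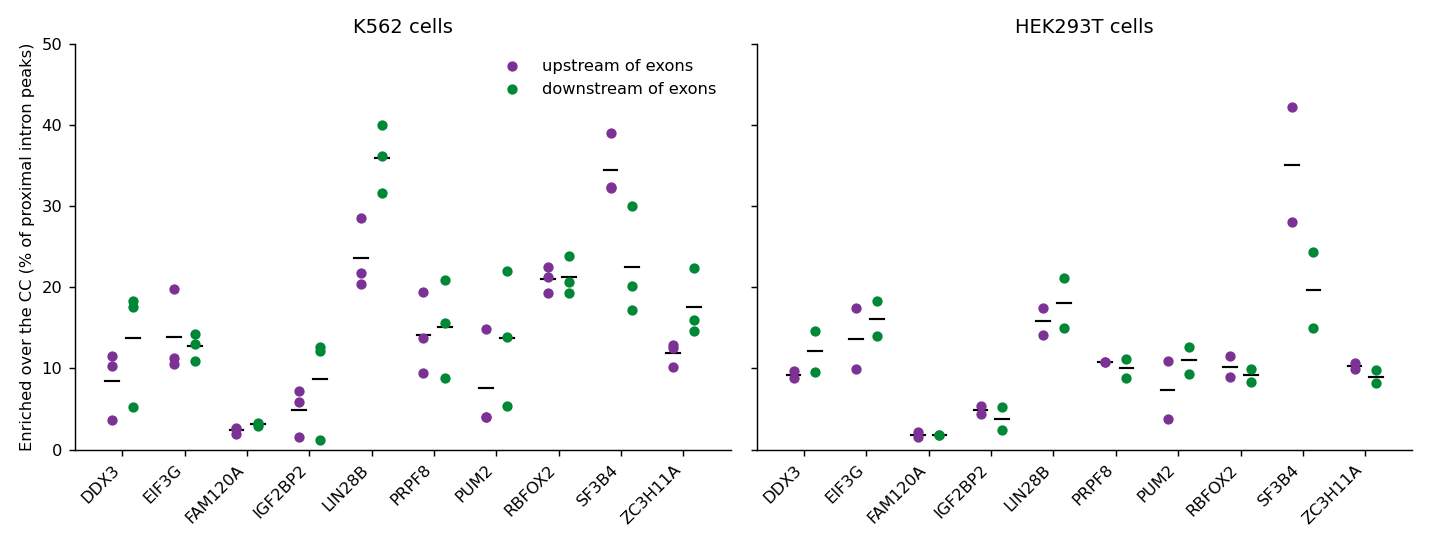
Percentage of the proximal intron peaks with a CC value that were enriched over the CC (P below 0.001 and over 8-fold), upstream and downstream of exons. Points are libraries and bars are means (n = 3 in K562, n = 2 in HEK293T). In K562 cells SF3B4 was higher upstream, LIN28B higher downstream, and RBFOX2 near 21% on both sides.

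In HEK293T cells 10.59% and 8.61% of the RBFOX2 proximal intron peaks were enriched, against a background of 5.99%. SF3B4 had 36.20% and 23.03% (background 24.5%, p = 0.010, adjusted p = 0.10, exact permutation test). The means of the others were 17.1% for LIN28B (27.6%), 15.0% for EIF3G (20.5%), 10.97% for DDX3 (13.2%), 10.3% for PRPF8 (17.9%), 9.53% for ZC3H11A (12.2%), 9.11% for PUM2 (22.5%), 4.16% for IGF2BP2 (5.21%) and 1.78% for FAM120A (20.8%), with the background of each in parentheses. The RBFOX2 shares of the cell lines did not overlap, with a difference of 11.6 points (p = 0.10, the smallest that 3 against 2 libraries allow in an exact permutation test). RBFOX2 held 14.0% to 18.1% of the pool in K562 cells and 25.9% to 26.0% in HEK293T cells, and the part of this in the difference was not tested.

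Set against peaks at splice sites, proximal intron peaks were enriched less often for PRPF8 and SF3B4, and more often in every K562 library of LIN28B, RBFOX2, DDX3, FAM120A, IGF2BP2 and ZC3H11A. The enriched share of proximal intron peaks minus that of intronic peaks within 100 nt of an intron end was 12.36, 10.62 and 14.53 points for RBFOX2 (p = 0.048, adjusted p = 0.12, exact permutation test, which misses the threshold). It was 11.12, 16.65 and 19.08 points for LIN28B (adjusted p = 0.047, exact permutation test), and for the other RBPs with a gain it was 0.90 (IGF2BP2) to 9.83 points (ZC3H11A) and did not pass. For PRPF8 it was -19.21, -25.65 and -12.84 points and for SF3B4 -14.61, -21.91 and -20.97 points (adjusted p = 0.035 for each, exact permutation test). In HEK293T cells the same differences were 4.84 and 4.37 points for RBFOX2, 6.53 and 5.68 for DDX3, 8.39 and 6.50 for LIN28B, -29.28 and -23.26 for PRPF8 and -25.32 and -15.87 for SF3B4. Against intronic peaks over 500 nt from both ends, the RBFOX2 differences were small (-2.63, -4.33 and -1.07 points in K562, 0.47 and 1.05 in HEK293T), and PUM2 was far lower (-41.04, -41.37 and -42.27 points, p = 0.002, adjusted p = 0.020, exact permutation test).

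Of the 6 motifs counted, GCATG was the one tested for RBFOX2, and it set its proximal intron peaks apart. GCATG lay within 75 nt of the centre of 36.75%, 42.52% and 41.01% of them in K562 cells, 40.1% ± 3.0 (SD, n = 3), against 14.6% on average and at most 20.9% for the other RBPs (p = 0.001, adjusted p = 0.003, exact permutation test). All 3 libraries were above all 27 others. The motif was searched on the strand of the peak only, and 14.0% of 521992 windows of the same length tiled over the same bands of all canonical coding introns hold it. Upstream of exons the share was 43.5% ± 4.1 and downstream 37.6% ± 2.1 (adjusted p = 0.006 on each side, exact permutation test). Among the RBFOX2 peaks enriched over the CC it rose to 60.92%, 66.70% and 63.89%, against a mean of 13.5% for the enriched peaks of the other RBPs (p = 0.001, adjusted p = 0.006, exact permutation test), with 69.8% ± 0.8 upstream and 59.7% ± 5.5 downstream. Single libraries of other RBPs reached 50% there, on few enriched peaks. A further measure is the number of copies: 14.8% ± 1.7 of the enriched peaks held 2 or more GCATG, against 6.35% ± 0.10 of all RBFOX2 proximal intron peaks.

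HEK293T cells gave close values, with GCATG at 42.50% and 38.96% of all RBFOX2 proximal intron peaks and at 71.60% and 66.22% of the enriched ones (p = 0.010 for both, the smallest possible, adjusted p = 0.060, exact permutation tests). The other RBPs averaged 16.8% and 10.9%. The difference between the cell lines in the share among all peaks was -0.64 points, less than the SD of either group. Enriched HEK293T peaks held 2 or more copies in 21.4% and 21.6% of cases.

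GCATG was not centred on the peak. In K562 cells 14.4% ± 2.0 (n = 3) of the enriched RBFOX2 peaks had a copy 16 to 25 nt on the 5′ side of the centre, 6.68% ± 0.94 within 5 nt of it, and 3.02% ± 0.79 at 5 to 14 nt on the 3′ side. The HEK293T values were 15.2% ± 3.0 (n = 2), 8.37% ± 0.62 and 4.83% ± 0.61. In singleplex ABC, where enrichment is over the external background, the shares were 11.2% ± 0.26 at 26 to 35 nt and 10.5% ± 2.1 at 16 to 25 nt on the 5′ side (n = 2).

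**Figure D4:**
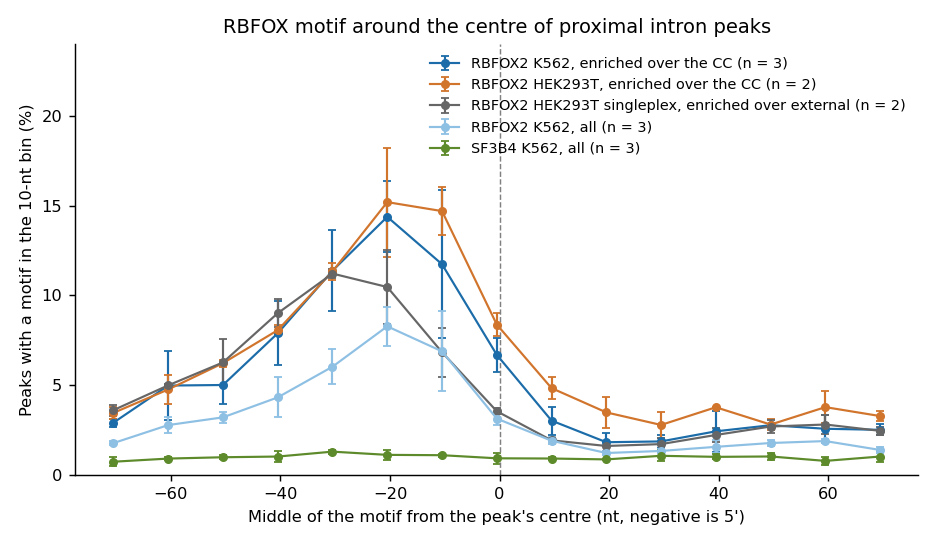
Percentage of proximal intron peaks with the middle of a GCATG in each bin of 10 nt around the peak's centre, on the strand of the peak (mean and SD over libraries). Enriched RBFOX2 peaks of both cell lines rise to 14% to 15% about 20 nt to the 5′ side, and SF3B4 stays near 1% throughout.

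Of the other motifs, GTAAG or GTGAG passed for PRPF8. It was found in 29.91%, 30.51% and 29.29% of the PRPF8 proximal intron peaks in K562 cells, 4.61 points above the other RBPs (p = 0.001, adjusted p = 0.003, exact permutation test), where 25.6% of the tiled windows hold it. The step was small: the lowest PRPF8 library equalled the highest of the others, 29.29%. In HEK293T cells it was 27.40% and 26.81% (p = 0.060, adjusted p = 0.18, exact permutation test). For SF3B4, TTTTT, as in a polypyrimidine tract, was in 19.1% ± 2.3 of the peaks (tiled windows 35.9%, exact permutation p = 0.30) and CTAAC or CTGAC, as at branch points, in 20.6% ± 0.86 (tiled windows 18.5%, p = 0.88). GGAG was in 59.4% ± 2.6 of the LIN28B peaks (tiled windows 48.6%, exact permutation p = 0.61) and TGTANATA, the Pumilio motif, in 1.34% ± 0.024 of the PUM2 peaks (tiled windows 2.03%, p = 0.054). None of these 4 passed the exact permutation test in either cell line. For PUM2 the difference of 0.39 points became 3.58 without peaks in small RNA genes (p = 0.001, exact permutation test), on few peaks. The GC content of the windows was above that of the tiled windows (42.6% upstream, 44.1% downstream) in the libraries of all RBPs, from 46.3% in a K562 library of PUM2 to 57.9% in HEK293T libraries of IGF2BP2. RBFOX2 had 54.9% ± 1.7 in K562 cells and 51.9% and 51.6% in HEK293T cells.

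Enriched RBFOX2 peaks lay beside exons that can be skipped more often than those of other RBPs. This measure, like the share in small RNA genes, in first introns and near alternative splice sites, was added after the data were seen. The exon next to the peak was absent from another annotated transcript that spans it for 29.48%, 27.81% and 28.91% of the enriched RBFOX2 peaks in K562 cells, against 14.9% for the other RBPs (p = 0.001, adjusted p = 0.010, exact permutation test) and 17.8% of all upstream and 17.6% of all downstream bands. The highest library of another RBP had 21.7%. In HEK293T cells the share was 31.40% and 32.65% against 17.6% (p = 0.010, adjusted p = 0.10, exact permutation test). By side it was 30.5% ± 0.46 upstream and 27.5% ± 1.5 downstream in K562 cells, which did not pass for either side alone (adjusted p = 0.20 and 0.070, exact permutation tests). Over all RBFOX2 proximal intron peaks, enriched or not, it was 22.2% ± 0.53, which did not pass (adjusted p = 0.44), but the upstream ones alone had 25.6% ± 0.58 (p = 0.001, adjusted p = 0.010, exact permutation test).

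Some proximal intron peaks are off the splice sites of the canonical transcript but in an exon or at a splice site of another. Annotated transcripts with a retained intron were not left out, so that such an exon can cover the intron itself. In K562 cells 38.83%, 33.13% and 38.77% of the RBFOX2 peaks lay in an exon or within 100 nt of a splice site of another annotated transcript, the lowest share of the 10 RBPs (p = 0.001, adjusted p = 0.010, exact permutation test). PUM2 had 95.24%, 87.50% and 89.86% (p = 0.002, adjusted p = 0.010, exact permutation test) and the others 47.4% (FAM120A) to 82.9% (EIF3G) on average. In HEK293T cells RBFOX2 had 28.26% and 25.66% and PUM2 79.72% and 79.46%. Annotated small RNA genes count as transcripts here, and without peaks inside them PUM2 differed from the others by only 0.14 points and no longer passed. A further count took peaks within 100 nt of an alternative 5′ splice site but not within 100 nt of an alternative 3′ splice site. It held 11.92%, 15.09% and 11.50% of the DDX3 peaks (p = 0.004, adjusted p = 0.040, exact permutation test). Of the enriched DDX3 peaks, which numbered 40, 56 and 18, it held 15.00%, 21.43% and 33.33% (p = 0.002, adjusted p = 0.020, exact permutation test). PRPF8 was close, with 12.73%, 10.67% and 12.40% of its peaks (adjusted p = 0.070, exact permutation test) and 19.77%, 9.52% and 19.75% of the enriched ones, and its difference from DDX3 was not tested. FAM120A stood out in first introns, which held 31.66%, 30.87% and 29.23% of its proximal intron peaks in K562 cells against 18.0% for the others (p = 0.001, adjusted p = 0.010, exact permutation test). In HEK293T cells, where it had 30.84% and 30.57%, it did not pass (adjusted p = 0.57, exact permutation test).

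Small RNA genes held most of the proximal intron peaks of PUM2 in both cell lines and few of those of RBFOX2. In K562 cells the share inside an annotated small RNA gene was 89.12%, 81.58% and 83.11% for PUM2 (p = 0.001, adjusted p = 0.010, exact permutation test), 69.0% ± 4.3 for EIF3G (adjusted p = 0.11), 56.3% ± 6.8 for ZC3H11A and 54.8% ± 6.5 for DDX3. It was 8.74%, 4.87% and 8.82% for RBFOX2 (p = 0.016, adjusted p = 0.080, exact permutation test). In HEK293T cells it was 65.03% and 63.78% for PUM2, 33.3% and 28.7% for EIF3G and 1.32% and 1.36% for RBFOX2. PUM2 also had the smallest libraries, with 0.865% to 1.03% of the reads of the pool in K562 cells, and the part of depth in this share was not tested. The genes were largely shared between RBPs. Of 145 small RNA genes with a proximal intron peak in all 3 K562 replicates of at least 1 RBP, 72 had one for all 10 RBPs, and all 72 were snoRNA or small Cajal body RNA genes. In K562 cells SNORD14E, a snoRNA in an intron of HSPA8, was among the 3 with the most reads for all 10 RBPs. Its reads over replicates ran from 270 for PUM2 and 787 for EIF3G to 5463 for RBFOX2 and 7054 for SF3B4. SNORD36C in RPL7A gave 377 reads for PUM2 and 454 for EIF3G. It was also among the 3 for DDX3 (1605), FAM120A (2117), IGF2BP2 (1611) and PRPF8 (1804). The reads of both snoRNAs are not scaled to depth, so that they give no order of the RBPs. K562 libraries held 13669 to 18624 reads in peaks for PUM2 and 32490 to 46817 for EIF3G. For SF3B4 they held 189314 to 487074 and for RBFOX2 367695 to 655056.

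**Figure D5:**
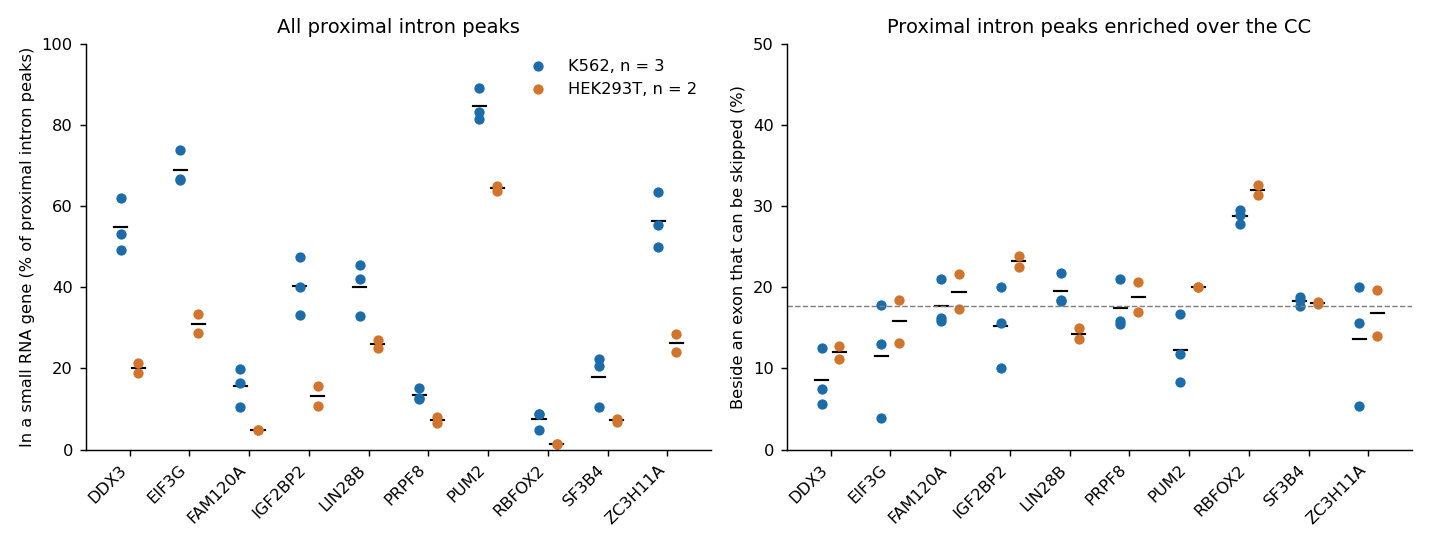
Left, percentage of all proximal intron peaks inside an annotated small RNA gene. Right, percentage of the proximal intron peaks enriched over the CC that lay beside an exon that can be skipped, with the share over all bands as a dashed line. Points are 10plex libraries and bars are means (n = 3 in K562, n = 2 in HEK293T). PUM2 is highest on the left in both cell lines, and RBFOX2 is above every other library on the right.

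RBFOX2, which also had the most enriched proximal intron peaks, had the most sites found in every replicate. In K562 cells 165 of its proximal intron peaks were enriched over the CC in all 3 replicates, 74 upstream and 91 downstream of exons, in 126 genes, and 76.4% of them held GCATG. The next RBPs were SF3B4 with 36 (34 of them upstream), PRPF8 with 22, LIN28B with 16 and FAM120A with 14, and the other 5 RBPs had 1 to 4 each. These counts are not scaled to the number of peaks. The K562 libraries held 29392 to 57788 merged peaks for RBFOX2, 13340 to 35259 for SF3B4, 50980 to 63944 for PRPF8 and 938 to 1535 for PUM2. In HEK293T cells RBFOX2 had 652 sites enriched in both replicates (275 upstream and 377 downstream, 72.4% with GCATG) and SF3B4 106 (98 of them upstream). Of the 165 K562 sites, 94 (57.0%) overlapped a HEK293T site by at least 1 nt, and 125 (19.2%) of the 652 overlapped a K562 site. In singleplex RBFOX2, 144 (87.3%) of the K562 sites and 556 (85.3%) of the HEK293T sites were enriched over the external background in both replicates. The same overlaps were not measured over all RBFOX2 proximal intron peaks, so that these shares have no background to be set against. Between replicates, 26.7% to 47.1% of the enriched RBFOX2 peaks in K562 cells and 43.2% to 48.4% in HEK293T cells were found again, and for FAM120A 30.7% to 55.3% and 39.2% to 41.3%. The other RBPs had lower means, from 7.91% (IGF2BP2) to 23.0% (LIN28B) in K562 cells. In HEK293T cells their means were 0.704% (IGF2BP2) to 21.5% (LIN28B). Those of SF3B4 were 17.2% and 12.9%, and those of PRPF8 18.2% and 10.2%.

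For SF3B4 the ranked sites upstream of exons were in SNRPA1, a protein of the U2 particle, where the peak lay 104 nt before an exon with 37, 65 and 21 reads and log2 folds of 6.22, 7.24 and 5.41, in RPL6, a ribosomal protein (6, 8 and 6 reads), and in DMTF1, a transcription factor (8, 21 and 6 reads). All 3 lay in or near exons of other transcripts, while those in CDK9 and TMEM41B, downstream of exons, did not. For LIN28B the top sites were in ICAM2, an adhesion molecule (11, 8 and 4 reads), and PRMT2, an arginine methyltransferase (31, 63 and 18 reads), both with GGAG within 75 nt and both also with GCATG, which 43.8% of the 16 LIN28B sites held. FAM120A had QKI, itself a splicing regulator (46, 55 and 33 reads), and ZBTB44 (17, 14 and 10 reads), EIF3G had FXYD5 with 3, 3 and 6 reads, and IGF2BP2 had the read-through gene TMED7-TICAM2 with 5, 12 and 10. The FAM120A, EIF3G and IGF2BP2 sites all lay in exons of other transcripts.

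Among 13 genes with exons known to be regulated by RBFOX proteins, 10 had a proximal intron peak of any RBP in K562 cells and 2 of them (20%), MAP3K7 and TSC2, had an RBFOX2 site enriched in all 3 replicates, against 2.757% of the 5623 genes with such a peak. MAP3K7, a kinase of inflammatory signalling, had 3, 4 and 3 RBFOX2 proximal intron peaks, of which 2, 2 and 1 were enriched, and TSC2, a negative regulator of mTOR, had 2, 7 and 6, with 1 enriched in each. In HEK293T cells all 13 had a peak and 6 (EPB41, ATP5F1C, MAP3K7, KIF21A, TSC2 and CLASP1) had a site enriched in both replicates, against 4.914% of 8913 genes. TSC2 also had such a site of PRPF8 and of SF3B4 there. RBFOX2 peaks in every replicate, enriched or not, were in 6 of the 10 genes (K562) and 12 of the 13 (HEK293T). For all genes with a peak the counts were 1045 of 5623 and 5242 of 8913. Of the genes with such RBFOX2 peaks, 2 of 6 and 6 of 12 had an enriched site, against 155 of 1045 and 438 of 5242. Among 32 splicing regulators the number with an RBFOX2 site enriched in every replicate was 3 in each cell line: MBNL1, PTBP2 and HNRNPH1 in K562, and RBFOX2 itself, MBNL1 and PTBP2 in HEK293T. MBNL1, an antagonist of fetal splicing patterns, had 5, 12 and 10 RBFOX2 peaks in K562 cells, with 2, 6 and 4 enriched. RBFOX2 had no such peak in its own gene in K562 cells, and 6 and 7 in HEK293T cells, with 2 and 3 enriched. SF3B4 sites lay in TIAL1, SRSF4 and SRSF11 in K562 cells (9.38% of the list against 0.889% of all genes with a proximal intron peak) and in 6 of the 32 in HEK293T cells (18.8% against 2.19%). The RBFOX2 share of this list was 9.38% in each cell line. RBFOX2 peaks in every replicate, enriched or not, were in 21 of the 32 genes in K562 cells and in 29 in HEK293T cells. Of these, 3 of 21 and 3 of 29 had an enriched site, against the same 155 of 1045 and 438 of 5242. For SF3B4 the counts were 3 of 8 and 6 of 17, against 50 of 345 and 195 of 1147. These lists are described by counts only, and were chosen with earlier results of these data known.

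The genes with the most RBFOX2 proximal intron peaks were CAMK2G, DOT1L, DNM2, PFKL and ANKRD17 in K562 cells, with 27 to 34 over the 3 replicates, and PRKDC, TBCD, DIP2A, DOT1L and WDR27 in HEK293T cells, with 38 to 46 over 2. Their introns numbered 20 to 33 and 25 to 85. DNM2, the dynamin of endocytosis, had 8, 13 and 11, of which 6, 11 and 10 were enriched, and 3 of its 32 lay downstream of exons. In CAMK2G, a calmodulin-dependent kinase, 5 of 7, 10 of 18 and 6 of 9 were enriched. In DOT1L, a histone methyltransferase, 0, 2 and 5 were enriched in K562 cells and 0 and 2 in HEK293T cells.

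Singleplex ABC of RBFOX2 in HEK293T cells asks whether the pool changes the result. Proximal intron peaks were 11.95% and 11.98% of the singleplex peaks, against 11.01% and 9.40% in the pool, and 43.4% and 42.7% of them lay upstream, against 41.5% and 41.4%. GCATG was found in 43.1% and 44.9% of them, against 42.5% and 39.0%. These values did not overlap, but 2 against 2 libraries cannot give a p below 0.33 in the exact permutation test. Over the external background, 16.30% and 23.05% of the singleplex and 23.66% and 15.40% of the pooled RBFOX2 proximal intron peaks were enriched, where the backgrounds were 10.0% and 9.20%. GCATG was in 58.3% and 54.8% of these enriched singleplex peaks and in 53.8% and 51.2% of the pooled ones. SLBP, which binds the stem-loop of histone mRNAs, had 404 and 174 proximal intron peaks, of which 44.6% and 100% were enriched over the external background. Over all its peaks the share was 37.8% and 99.9%, or 55.3% with the replicates pooled. The deposited list of its second replicate held almost only enriched peaks, so that its share, and the pooled one, say nothing about the introns. GCATG was in 11.6% and 13.8% of the SLBP peaks, near the share of the tiled windows.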

How the data were processed

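Peaks of 54 libraries of antibody-barcode eCLIP were analysed. The authors trimmed reads with cutadapt (version 2.8), aligned them with STAR (version 2.7.6) to GRCh38, removed duplicates by molecular identifiers and called peaks with CLIPper in each library, without pooling replicates. The authors' CLIPper lists hold a p-value per peak, or in some libraries a score derived from it, which served only to check read numbers. The deposited merged peaks hold −log10 P (at most 400) and the log2 fold over an external background, each scaled to its library total. Over the complement control (CC), the deposited files of K562 replicate 3 hold −log10 P and log2 fold, and those of the other pools hold the statistic of a chi-squared test with the p-value, after removal of repeats, so that filtered peaks have no CC value. For low read numbers the paper's methods give Fisher's exact test. Outside K562 replicate 3, P was computed from the chi-squared statistic at every read number, so that peaks of few reads can pass more easily there. At the LIN28B site in ICAM2, 8 reads gave a −log10 P of 21.5 in replicate 2 (chi-squared). There 4 reads gave 4.42 in replicate 3 (deposited), at log2 folds of 6.12 and 6.15.

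Reads per peak were solved from the deposited folds, and CC reads from the statistic. The step was tried on statistics computed with the same formula from the reads of K562 replicate 3. This shows only that the formula can be inverted, and recovered values were not compared with deposited ones. In the real pools 62.8% to 99.5% of enriched peaks gave CC reads within 0.1 of a whole number, with the lowest share for RBFOX2 in HEK293T cells. Whole reads gave back the deposited statistic for 11.5% (FAM120A, HEK293T replicate 2) to 97.5% (PUM2, K562 replicate 1) of the enriched peaks. In the cases inspected the statistic rested on a few more reads than the merged peak, so that folds there are approximate.

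Introns came from the Ensembl canonical coding transcripts of GENCODE 44 on GRCh38, whereas the authors used GENCODE 35. Reads in peaks numbered 13669 to 2657127 per 10plex library and 19484 to 4606572 per singleplex library. Shares of few peaks are the least precise. RBPs were compared by an exact two-sided permutation of RBP labels within replicates, since the 10 libraries of a replicate share a pool (1000 choices in K562 cells, 100 in HEK293T cells), on the mean difference from the other 9, with Benjamini-Hochberg adjustment over the 10 RBPs, or over the 6 pairs of motif and RBP. The smallest p is 0.001 in K562 cells and 0.01 in HEK293T cells. A value passed at an adjusted p of at most 0.05. Named sites were those with the highest mean fold among sites enriched in every replicate, 3 per side for RBFOX2, PRPF8 and SF3B4 and 1 for each other RBP, leaving out small RNA genes and adapter-like sequence. The members, gene lists and motifs were chosen with earlier results of these data known. The shares beside skipped exons, in first introns, in small RNA genes and near alternative splice sites by type, the GC content and the upstream share among enriched peaks were measured after the data were seen. Alternatives were other introns, peaks, enrichment thresholds, backgrounds, motif windows and replicates left out. The tests were checked on simulated data. Python 3.11.15, numpy 2.4.6, pandas 2.3.3 and scipy 1.17.1 were used.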

Additional observations from a re-analysis of the deposited data

Results flagged for a closer look

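In 4 cases every K562 library lay on one side of the mean of the other RBPs and every HEK293T library on the other. The differences from the other RBPs were not tested between the cell lines. The shares themselves were, for 3 of them, by an exact permutation test of 3 libraries against 2, which cannot give a p below 0.10. The proximal intron share of EIF3G peaks was 1.485 points above the other RBPs in K562 cells and -0.6854 points from them in HEK293T cells (p = 0.20 for the share, exact permutation test). The share of RBFOX2 proximal intron peaks enriched over the CC differed by 6.291 points in K562 cells and by -2.347 points in HEK293T cells, where RBFOX2 held 25.9% to 26.0% of the pool against 14.0% to 18.1% in K562 cells (p = 0.10 for the share, exact permutation test). The share of SF3B4 peaks with TTTTT differed by -2.25 points in K562 cells and by 2.621 points in HEK293T cells, while the share itself was 19.1% and 19.6% and overlapped between the cell lines (p = 0.80, exact permutation test). The share of LIN28B peaks with GGAG differed by 2.157 points in K562 cells and by -1.221 points in HEK293T cells.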

How the results depend on the processing

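Over all alternatives, 541 values kept their direction and side of the threshold (unadjusted p of 0.05), 32 no longer passed, 21 newly passed and 6 reversed. The reversed ones were the PUM2 differences from the other RBPs: member share -0.9746 points without peaks at exons or splice sites of other transcripts and -1.448 without small RNA genes, and CC-enriched share 39.45 without small RNA genes and 39.58 over the external background. The others were the CC-enriched share of FAM120A at 10 or more reads (0.2747) and of LIN28B over the external background (-13.83). The cause was not tested. In K562 cells the number of RBPs or motifs past the threshold was 2 for the member share, 2 for the upstream share, 3 for the CC-enriched share, 2 for motifs, 2 for sites of other transcripts, 4 and 2 for the differences from peaks within 100 nt and over 500 nt, and 3 and 4 for the distance upstream and downstream. In HEK293T cells it was 1 for the upstream share, 1 for the CC-enriched share, 1 for motifs, 2 and 1 for those differences and 1 for the downstream distance, where fewer libraries limit the test. The member share count was 1 in introns over 1000 nt, 1 without sites of other transcripts and 1 without repeat-filtered peaks (K562 replicates 1 and 2), and the upstream count 1 without sites of other transcripts. At 10 or more reads it was 4 for the upstream share, 1 for the CC-enriched share, 1 for motifs and 1 for sites of other transcripts, and for motifs in enriched peaks 1. The share at sites of other transcripts has no value without those peaks. Leaving out each K562 replicate in turn gave 1 to 2 for the member share (1 without replicate 2 or 3), 1 to 2 for the CC-enriched share (1 without replicate 2), 1 to 3 and 1 to 2 for the differences and 1 to 2 for the downstream distance. With no replicate block, that is with RBP labels permuted over all K562 libraries, the counts were 3, 3, 3, 3 and 2 for the first 5 measures, 4 and 2 for the differences, and 3 and 4 for the distances, and no direction changed.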
